A study of Mus musculus with 4 samples.

Results

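The genes described here are 50 mouse genes of the protein folding and amino acid stress responses, and their transcripts were compared between Kupffer cells treated with maresin 1 and with vehicle. The members were taken by name, not by measured value: 16 genes of the cytosolic heat shock branch (3 of them mitochondrial chaperones), 17 genes of the endoplasmic reticulum (ER) chaperone branch and 17 genes of the serine and amino acid branch. An array probe was assigned to a member where its transcript identifier or gene name resolved to that gene. Probes were found and kept for 49 of the 50 members, out of 24055 genes tested in all, and the proline synthesis gene Pycr1 has no value here.

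Kupffer cells are the resident macrophages of the liver, and maresin 1 (MaR1) is a product of docosahexaenoic acid that macrophages release as inflammation resolves. The cells were primary cells from male C57BL/6 mice aged 8 weeks, isolated by collagenase perfusion and a Percoll gradient and plated in RPMI medium with 10% serum. Cells of 1 group (2 arrays) received MaR1 at 200 nM for 24 h, and cells of the other group (2 arrays) received the ethanol vehicle for the same time, both in medium with 0.1% serum. Whether a group's arrays stand for separate cultures, animals or pools is not given in the labels, and the p-values therefore reflect no more than array-to-array spread, part or all of which may be technical. All arrays were on 1 slide with the groups at different positions, so group and position cannot be told apart.

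Cells answer unfolded protein through separate gene programmes. In the cytosol the transcription factor HSF1 is held inactive by chaperones and, once released, binds heat shock elements and induces the inducible HSP70 proteins, their co-chaperones and small heat shock proteins. In the ER the sensors IRE1, ATF6 and PERK act when folding capacity falls short: spliced XBP1 and cleaved ATF6 induce the ER chaperones and disulphide isomerases, and ATF6 with NF-Y uses the ER stress element. PERK, like the amino acid sensor GCN2, phosphorylates eIF2 and so raises translation of ATF4, which induces genes of amino acid synthesis and transport and, with partners of the C/EBP family, binds a composite element. HSF1 and ATF4 are controlled largely after transcription, so their transcript levels are one readout among several.

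The promoters of the branches differ in the elements they hold, and the stretches below show them beside the genes whose transcripts were measured. Motifs were searched on both strands in the 300 bases from 250 before to 50 after each start site (RefSeq, assembly GRCm38.p6). The sequences run 5′ to 3′ on the gene's strand, and capitals mark the match, which reads as its reverse complement where it lies on the other strand. The heat shock element was searched as GAANNTTC. Members with a match that did not pass the test described below were Bag3, Hspd1 and Hspe1. The 4 members of the cytosolic branch shown here are ones whose transcripts rose with MaR1.
Hspa1a, chr17:34972227-34972286, minus strand: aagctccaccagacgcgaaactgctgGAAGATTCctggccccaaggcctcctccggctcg
Hspa1b, chr17:34959309-34959368, minus strand: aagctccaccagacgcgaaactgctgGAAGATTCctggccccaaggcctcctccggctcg
Hspb1, chr5:135887789-135887848, plus strand: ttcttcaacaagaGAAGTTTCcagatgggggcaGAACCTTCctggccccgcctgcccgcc
Dnaja1, chr4:40722328-40722377, plus strand: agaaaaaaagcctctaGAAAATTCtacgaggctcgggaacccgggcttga

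The match began 104 bases before the start site in both Hspa1a and Hspa1b, which are neighbouring copies with start sites 12918 bases apart and promoter windows identical at 296 of 300 bases. Hspb1 held a pair of matches, 97 and 117 bases before its start, and the match of Dnaja1 began 124 bases before. A heat shock element stood in 8 of the 11 cytosolic branch members with a promoter entry (72.7%), in 0 of 16 ER branch members, in 1 of 17 serine and amino acid members (Asns) and in 9.04% of all 27025 genes with an entry. The 8 were Hspa1a, Hspa1b, Hspb1, Hsph1, Dnaja1, Bag3, Hspd1 and Hspe1. The last pair are mitochondrial chaperonin genes in divergent orientation, and the shortest distance between their listed starts is 95 bases. Their matches are the same bases read on opposite strands, so a shared site is counted for both genes. A match is a description of the letters and not evidence of binding.

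The ER stress element was searched as CCAAT and CCACG with 9 bases between them, and 5 members are shown: 4 whose transcripts rose with MaR1 and Hsp90b1, which holds a pair of matches.
Hspa5, chr2:34772000-34772069, plus strand: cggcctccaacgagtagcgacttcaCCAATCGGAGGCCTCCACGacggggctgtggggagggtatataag
Pdia6, chr12:17266469-17266528, plus strand: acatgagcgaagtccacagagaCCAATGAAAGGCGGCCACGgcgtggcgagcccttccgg
Calr, chr8:84847052-84847111, minus strand: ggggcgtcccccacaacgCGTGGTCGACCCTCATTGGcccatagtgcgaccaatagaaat
Creld2, chr15:88819506-88819555, plus strand: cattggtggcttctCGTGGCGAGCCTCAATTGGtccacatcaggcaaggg
Hsp90b1, chr10:86705525-86705664, minus strand: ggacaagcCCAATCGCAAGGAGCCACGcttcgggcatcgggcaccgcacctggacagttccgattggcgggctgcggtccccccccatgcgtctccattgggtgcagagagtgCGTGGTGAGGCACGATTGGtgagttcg

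This element stood in 7 of the 16 ER branch members with an entry (43.8%: the 5 shown, Canx and Dnajc3) and in 0.137% of all genes, with 0 matches in either other branch. The third motif, the C/EBP-ATF type element TGATGNAA, stood in 5 of 17 serine and amino acid members (29.4%: Asns, Chac1, Pycr1, Trib3 and Vldlr), in Herpud1 of the ER branch, in none of the cytosolic branch and in 4.51% of all genes. Of those 5, 4 were measured, Pycr1 having no value here. The element is shown for the 2 whose transcripts rose, and Asns and Trib3 did not pass.
Chac1, chr2:119351032-119351071, plus strand: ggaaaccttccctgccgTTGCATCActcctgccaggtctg
Vldlr, chr19:27216805-27216844, plus strand: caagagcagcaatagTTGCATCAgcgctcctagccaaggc

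After MaR1, transcripts of the inducible HSP70 genes, of BiP and of several of its partners rose, and so did Psat1 of the serine pathway, while the regulators Hsf1, Xbp1 and Atf4 did not pass. Among the 49 members measured, 19 rose and 1 fell at a Benjamini-Hochberg adjusted p under 0.05 in limma, against 11.2% of all genes tested that rose and 12.8% that fell. By branch, 6 of 16 cytosolic heat shock members rose (37.5%) and 0 fell, 9 of 17 ER members rose (52.9%) and 0 fell, and 4 of 16 serine and amino acid members rose (25%) and 1 fell. At an unadjusted p under 0.05, 0 members of either chaperone branch were lower, while with a variance trend 2 ER members were lower at the adjusted threshold and with normexp 1 was. The median log2 difference, MaR1 minus vehicle, was 0.22 in the cytosolic branch, 0.26 in the ER branch and 0.05 in the serine and amino acid branch, against -0.02 over all genes tested. The difference between branches was not tested.

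**Figure D1:**
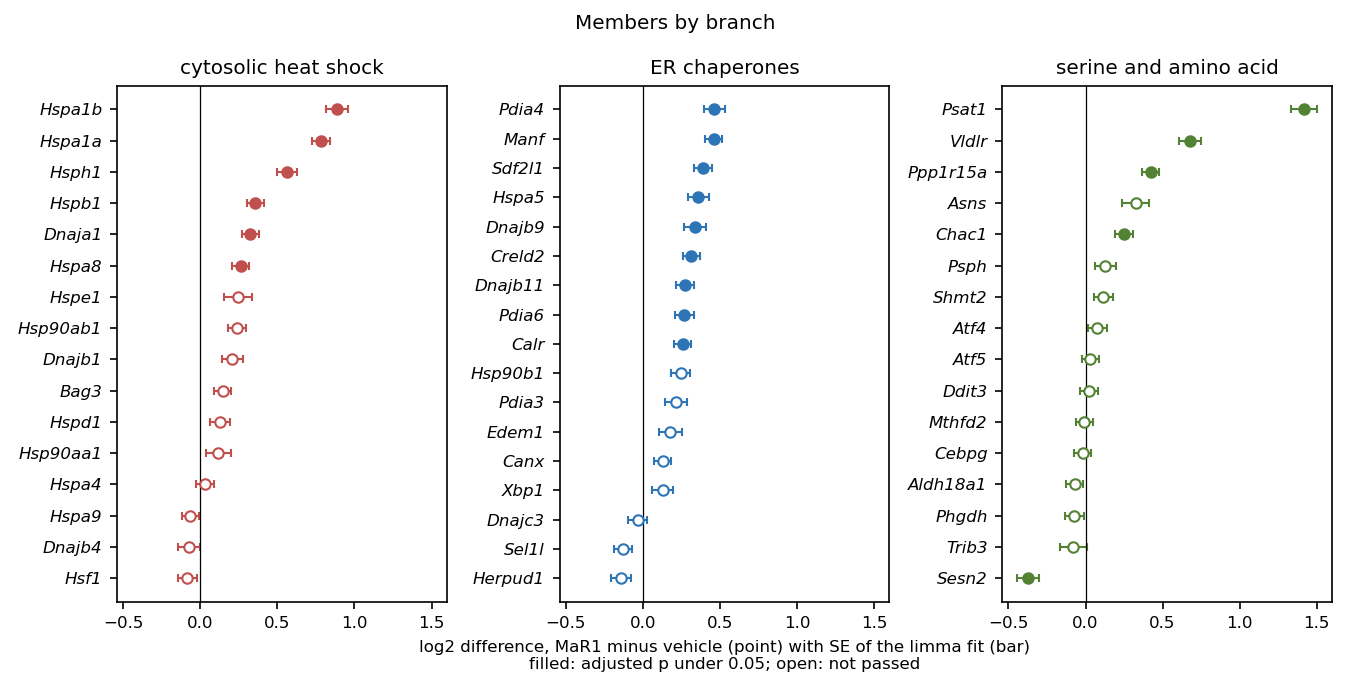
Log2 difference in transcript level, MaR1 minus vehicle (horizontal axis), for each of the 49 measured members, in 3 panels by branch. Points are the limma estimate with its SE (2 arrays a group), filled where the adjusted p is under 0.05; the largest difference is that of Psat1 at 1.42, and Sesn2 at -0.37 is the filled point left of 0.

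On single arrays the MaR1 values lay above both vehicle values in 34 of the 49 members, a pattern shared by 32.7% of all genes, and below both in 7, against 36.8% of all genes; in 8 the groups overlapped. The median cytosolic branch member stood 0.16 above its vehicle mean on the first MaR1 array and 0.26 on the second, on the log2 scale. The median ER branch member stood 0.26 and 0.28 above. The median serine and amino acid member stood 0.03 and 0.06 above, close to all genes at -0.02 and -0.02. In these bulk cultures, fewer cells of a type and less RNA per cell cannot be told apart.

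The sizes of the chaperone differences depended on how arrays were scaled. With quantile normalization in place of scaling to the 75th percentile, the medians were 0.12 (cytosolic), 0.16 (ER) and -0.02 (serine and amino acid), and 3, 3 and 3 members rose. With no scaling the median over all genes moved by -0.12, the share of calls that were higher went from 46.8% to 26.9%, the branch medians were 0.10, 0.13 and -0.07, and 3, 0 and 2 members rose by limma (3, 2 and 3 higher at an unadjusted p under 0.05). The plot of branch medians by setting shows that both chaperone medians stayed above the median of all genes in each setting drawn. These settings are not all separate checks. Those that change only the probe filter gave the same branch medians as the main setting. The deposited values, distributed as after quantile normalization, gave 0.12 (cytosolic) and 0.16 (ER), as quantile normalization did.

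**Figure D2:**
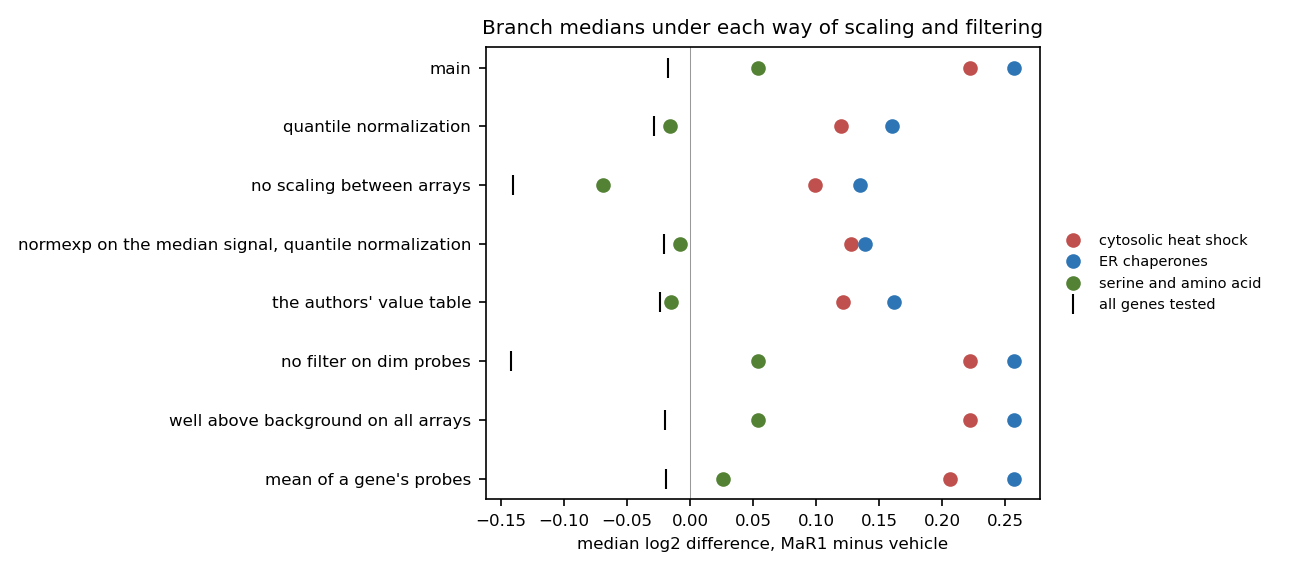
Median log2 difference, MaR1 minus vehicle (horizontal axis), of the measured members of each branch (coloured points) and of all genes tested (black ticks), under 8 ways of scaling, filtering and combining probes (rows; the top one is the setting used in the text). The cytosolic medians lie between 0.10 and 0.22 and the ER medians between 0.13 and 0.26, while the serine and amino acid median changes sign.

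Members of the chaperone branches are mostly abundant transcripts, and abundant transcripts tended to be higher after MaR1 as a whole. When all genes were put in order of mean level and cut into 10 bins, the brightest bin (2406 genes) had a median difference of 0.09, with 14.9% higher and 4.66% lower, and it held 24 of the 49 members: 12 of the cytosolic branch, 7 of the ER branch and 5 of the serine and amino acid branch. Of those 24 members, 9 rose and 0 fell. The part of brightness in the branch medians was not tested.

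**Figure D3:**
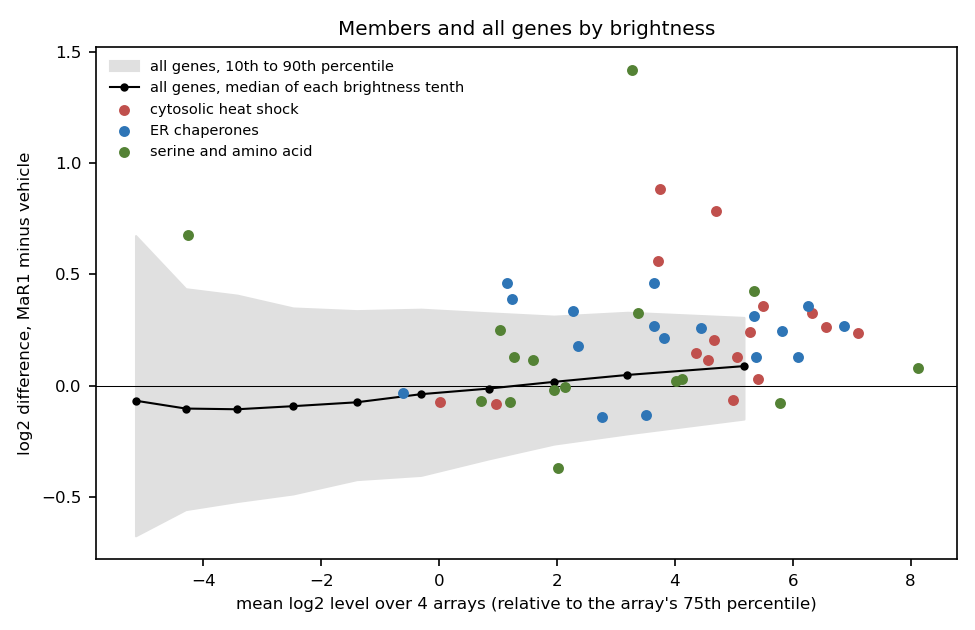
Log2 difference, MaR1 minus vehicle (vertical axis), against the mean log2 level over the 4 arrays relative to the array's 75th percentile (horizontal axis). Coloured points are members by branch; the black line is the median of all genes in each of 10 bins of level, which runs from -0.07 in the dimmest bin to 0.09 in the brightest, and the grey band spans their 10th to 90th percentile.

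In the cytosolic branch the inducible HSP70 genes changed most. Levels below are log2 signals relative to the 75th percentile of the same array, so they compare arrays for 1 probe and not different genes. Hspa1a, a chaperone barely made in unstressed cells and strongly induced by heat and misfolded protein, stood at 4.29 and 4.33 on the vehicle arrays and at 5.07 and 5.12 on the MaR1 arrays. Hspa1b, its near-identical copy, stood at 3.27 and 3.33 with vehicle and at 4.12 and 4.25 with MaR1. For both genes the MaR1 arrays were high and clear of the vehicle arrays. Hspa1a rose 1.72-fold (log2 difference 0.78 ± 0.06 SE, limma adjusted p = 0.00483) and Hspa1b rose 1.85-fold (0.89 ± 0.07 SE, adjusted p = 0.00552), and both kept the call whichever array was left out. Because the copies are so alike, each probe may read transcripts of both, and which copy changed is uncertain.

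Hsph1 encodes HSP110, which recharges HSP70 by nucleotide exchange and helps to pull aggregates apart. Its level was 3.41 and 3.45 with vehicle and 3.95 and 4.04 with MaR1, again without overlap. It rose 1.48-fold (0.56 ± 0.06 SE, limma adjusted p = 0.0101), and its other probes gave 0.56 and 0.51. The Hsph1 call was lost without vehicle replicate 1 or MaR1 replicate 2 (largest adjusted p = 0.0569).

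Smaller rises were seen in 3 further members, which serve holding and delivery of clients. The small heat shock protein gene Hspb1 rose by 0.36 ± 0.05 SE. Dnaja1, a J-domain co-chaperone that hands clients to HSP70, rose by 0.33 ± 0.06 SE. Hspa8, the constitutive HSC70, rose by 0.26 ± 0.06 SE. The limma adjusted p was 0.0191, 0.0247 and 0.0392, and each of these 3 calls was lost whichever array was left out (largest adjusted p = 0.0964, 0.116 and 0.158). The probes of Hspa8 ran from 0.06 to 0.26 and those of Dnaja1 from 0.05 to 0.46, all above 0.

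The other 10 members of this branch did not pass. The transcript of the regulator Hsf1 read 0.98 and 1.03 with vehicle and 0.90 and 0.95 with MaR1. The MaR1 arrays were just below the vehicle arrays, with a log2 difference of -0.08 (95% interval -0.24 to 0.08). HSP90 genes, whose products mature kinases and steroid receptors, gave 0.24 for Hsp90ab1 (limma adjusted p = 0.0534) and 0.12 for Hsp90aa1. Among the co-chaperones, Dnajb1 gave 0.21, Bag3, a nucleotide exchange factor tied to autophagy, gave 0.15, Hspa4 gave 0.03 and Dnajb4 gave -0.07. The mitochondrial chaperones gave 0.24 for Hspe1, 0.13 for Hspd1 and -0.06 for Hspa9, so 0 of 3 passed in either direction (0 also at an unadjusted p under 0.05). Of the 8 members with a heat shock element in the window, 5 rose, against 6 of 16 in the branch and 11.2% of all genes tested. The 8 are not independent, since Hspa1a and Hspa1b are near-identical copies and Hspd1 and Hspe1 share a match.

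**Figure D4:**
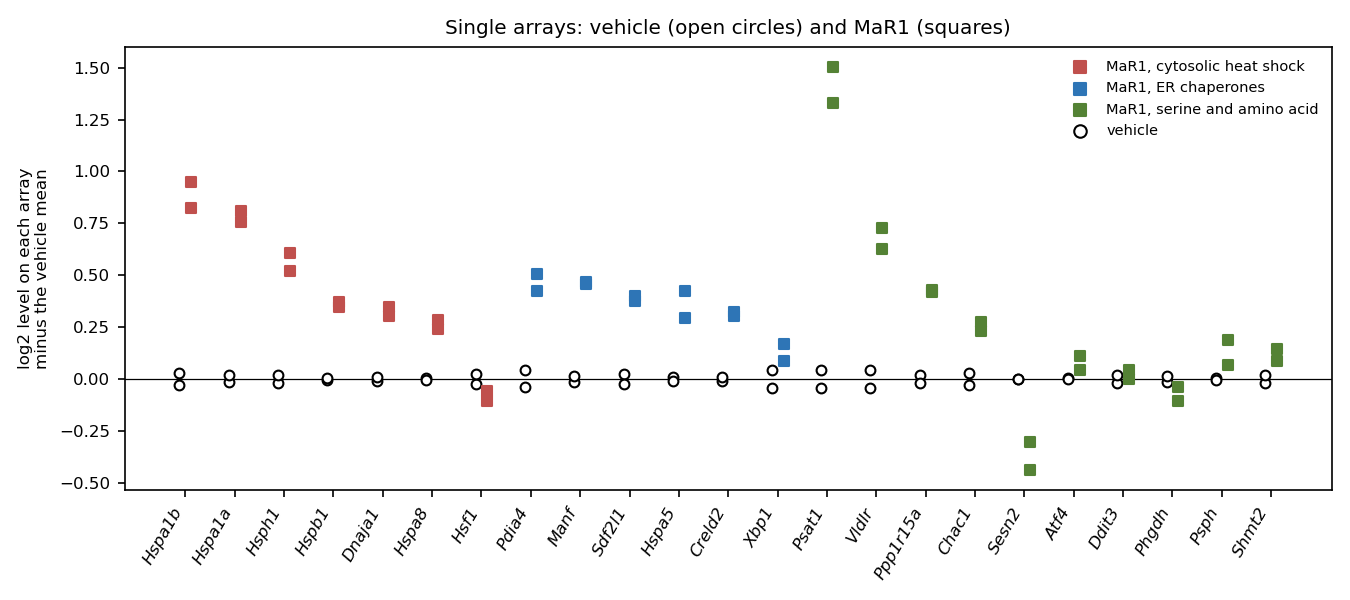
Log2 level on each array minus the vehicle mean of the same gene (vertical axis) for 23 members (horizontal axis): open circles are the 2 vehicle arrays and coloured squares the 2 MaR1 arrays. Squares of Psat1, Hspa1a, Hspa1b, Hsph1 and Vldlr lie over 0.5 above the vehicle mean, and those of Sesn2 lie below it.

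In the ER branch the rises were many and of similar size. Hspa5 encodes BiP, the ER HSP70 that binds unfolded chains and holds the stress sensors inactive. Its level was 6.09 and 6.08 with vehicle and 6.38 and 6.51 with MaR1. Both MaR1 arrays were above both vehicle arrays, and Hspa5 rose 1.28-fold (0.36 ± 0.07 SE, limma adjusted p = 0.0325), with 0.27 and 0.28 at its other probes. Hsp90b1, the ER HSP90 called GRP94, gave 0.25 and did not pass (adjusted p = 0.0564).

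Among the isomerases, lectin chaperones, J-domain partners and related targets around BiP, 8 of 11 members rose. Of the disulphide isomerases, which form and reshuffle disulphide bonds, Pdia4 rose by 0.46 ± 0.07 SE and Pdia6 by 0.27 ± 0.06 SE, and Pdia3, which works on glycoproteins, gave 0.21 without passing. Of the lectin chaperones, which hold glycoproteins during folding, the soluble Calr rose by 0.26 ± 0.05 SE and the membrane-bound Canx gave 0.13. The J-domain partners of BiP rose by 0.34 (Dnajb9) and 0.27 (Dnajb11), and Dnajc3 gave -0.03. Manf, a BiP-binding ER protein that is also secreted, rose by 0.46 ± 0.06 SE, Sdf2l1, a BiP and Dnajb11 partner, by 0.39 ± 0.06 SE and Creld2, a disulphide isomerase-like protein induced in ER stress, by 0.31 ± 0.05 SE. So 9 of the 13 chaperones, isomerases, co-chaperones and related targets of the ER branch passed, and 12 of those 13 were above 0. The members set aside, Xbp1 and the degradation genes, did not pass. Over the whole branch 9 of 17 members rose and 14 were above 0. Of all 24055 genes tested, 11.2% rose and 11367 were above 0.

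ER-associated degradation and the branch's transcription factor did not follow in a way that passed. Xbp1 stood at 5.98 and 6.07 with vehicle and 6.12 and 6.19 with MaR1. The MaR1 arrays were just above the vehicle arrays, and the difference did not pass (0.13, 95% interval -0.05 to 0.31). Splicing of Xbp1 was not analysed here. The degradation genes gave 0.18 for the mannosidase-like Edem1, -0.13 for the ligase adaptor Sel1l and -0.14 for Herpud1, which scaffolds the ligase complex. A further Sel1l probe gave 0.24, opposite in sign, and neither passed.

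The ER branch calls were lost when an array was left out, with 1 exception: of its 17 members, 0 were called higher without vehicle replicate 1, 0 without vehicle replicate 2, 1 without MaR1 replicate 1 (Manf) and 0 without MaR1 replicate 2, each with 3 arrays in limma, while 8 to 10 members were still higher at an unadjusted p under 0.05. Of the 7 members with an ER stress element in the window, 4 rose, against 9 of 17 in the branch and 11.2% of all genes tested. Pdia4, Dnajb9, Dnajb11 and Sdf2l1 rose without a match there.

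In the serine and amino acid branch Psat1 stood apart from the rest. The pathway makes serine from the glycolytic intermediate 3-phosphoglycerate through PHGDH, PSAT1 and PSPH in turn. Psat1, the aminotransferase of the middle step, read 2.61 and 2.52 with vehicle and 3.90 and 4.07 with MaR1. It rose 2.67-fold (1.42 ± 0.08 SE, limma adjusted p = 0.0033), its second probe gave 1.61, and the call held in each of the 14 alternative settings. The gap between the groups far exceeded that between arrays of a group.

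The enzymes on either side did not pass. Phgdh, which commits carbon to the pathway, read 1.22 and 1.25 with vehicle and 1.13 and 1.20 with MaR1 (-0.07, 95% interval -0.23 to 0.09). Psph, which releases serine, read 1.21 and 1.20 with vehicle and 1.28 and 1.40 with MaR1 (0.13, 95% interval -0.06 to 0.31). Shmt2, the mitochondrial enzyme that turns serine into glycine and one-carbon units, read 1.52 and 1.56 with vehicle and 1.69 and 1.63 with MaR1 (0.12, 95% interval -0.05 to 0.28). In none of these 3 did the groups overlap, with the MaR1 arrays slightly below in Phgdh and slightly above in the others. Of all genes tested, 36.8% likewise lay below and 32.7% above without overlap, so the pattern is common. A second Shmt2 probe had the opposite sign. Mthfd2, the next mitochondrial one-carbon enzyme, gave -0.01, and the proline enzyme Aldh18a1 gave -0.07. Asns, the asparagine synthetase and a standard ATF4 target, gave 0.32 with a second probe at 0.30 and did not pass (limma adjusted p = 0.0606).

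Transcripts of the branch's transcription factors did not pass. Atf4, the factor translated when eIF2 is phosphorylated, read 8.09 and 8.08 with vehicle and 8.13 and 8.20 with MaR1 (0.08, 95% interval -0.08 to 0.24). Its second, dimmer probe gave 0.20 (unadjusted p = 0.0223 and adjusted p = 0.0734 in limma over all probes). Ddit3, which encodes the pro-apoptotic factor CHOP, read 3.983 and 4.020 with vehicle and 3.999 and 4.046 with MaR1 (0.02, 95% interval -0.14 to 0.18). The MaR1 arrays of Atf4 lay above both vehicle arrays, as in 32.7% of all genes, and the Ddit3 arrays overlapped between groups. Atf5, an ATF4-related factor, read 4.10 and 4.11 with vehicle and 4.12 and 4.15 with MaR1 (0.03). Cebpg, a dimer partner of ATF4, read 1.94 and 1.98 with vehicle and 1.93 and 1.95 with MaR1 (-0.02). So 0 of 4 passed at their brightest probes (0 also at an unadjusted p under 0.05, apart from the second Atf4 probe), which does not show that they were equal.

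Among the 5 feedback and stress targets of ATF4, 3 rose and 1 fell, against 11.2% and 12.8% of all genes tested. Ppp1r15a encodes GADD34, which brings phosphatase to eIF2 and so restores translation, and it rose 1.34-fold (0.42 ± 0.06 SE, limma adjusted p = 0.0142). Vldlr, a lipoprotein receptor gene induced through ATF4 in ER stress, read -4.55 and -4.63 with vehicle and -3.86 and -3.96 with MaR1. It rose 1.60-fold (0.68 ± 0.07 SE, adjusted p = 0.00883) and held the call in each of the 14 settings. The level was low, and with normexp correction of the median signal followed by quantile normalization the difference was 0.26. Chac1, which breaks down glutathione, rose by 0.25 ± 0.06 SE (adjusted p = 0.0487). Sesn2, a leucine sensor that restrains mTORC1, fell by 0.37 on the log2 scale (adjusted p = 0.0317), and Trib3, a pseudokinase that restrains ATF4, gave -0.08. The calls of Ppp1r15a, Chac1 and Sesn2 were lost whichever array was left out (largest adjusted p = 0.0748, 0.195 and 0.121).

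Different probes of a member mostly agreed in sign. Probes other than the brightest that were well above background on all 4 arrays numbered 34 over 26 members, of which 30 had the sign of the brightest probe and 4 the opposite sign (Cebpg, Hspa9, Sel1l and Shmt2), none of them in a called member. Of the 13 such probes in called members, all 13 had the same sign and 9 passed in limma adjusted over all probes. A wide gap was that of Dnajb9 (0.34 and 0.74). A further Dnajb11 probe was kept only through the MaR1 arrays, being not well above background on the vehicle arrays, and is left out of these counts.

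**Figure D5:**
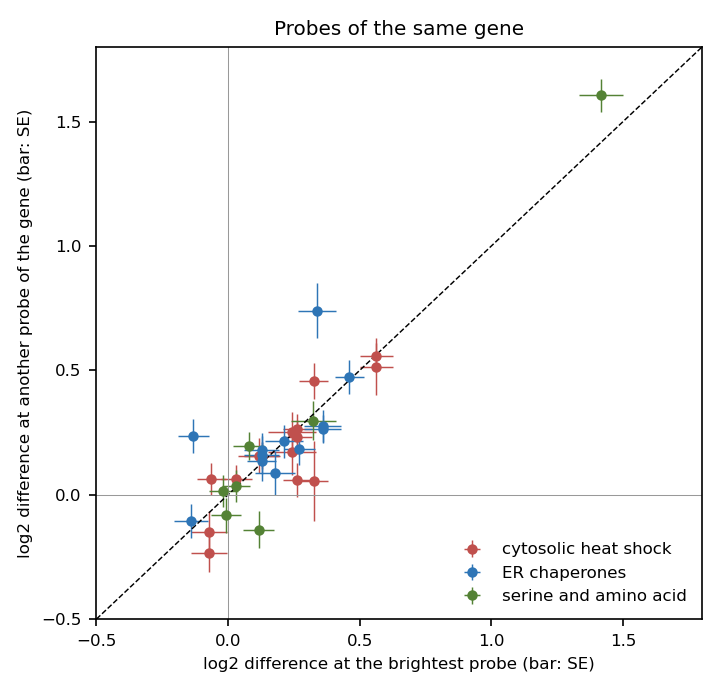
Log2 difference, MaR1 minus vehicle, at another probe of a member well above background on all 4 arrays (vertical axis) against that at its brightest probe (horizontal axis), with SE bars from limma; the dashed line marks equality. There are 34 such probes over 26 members, 30 of them with the sign of the brightest probe, and Psat1 lies at the upper right with 1.42 and 1.61.

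Calls among further chaperone genes are set beside the 11.2% of all genes tested that rose and the 12.8% that fell. With lists this small, shares that rose somewhat under 11.2% do not show a difference from all genes. Of 32 other cytosolic chaperones and cofactors, 3 rose (9.38%) and 0 fell in limma (8 and 0 at an unadjusted p under 0.05, median 0.12): Bag2, an HSP70 exchange factor, by 0.74 ± 0.06 SE, Ahsa1, which activates HSP90, by 0.31 and St13, an HSP70-interacting protein, by 0.27, while the chaperonin subunit Cct2 gave 0.20 without passing. Of 32 other ER folding, degradation and sensor genes, 2 rose (6.25%) and 0 fell (7 and 1 unadjusted, median 0.09): the isomerase Pdia5 by 0.66 ± 0.06 SE and the translocon-associated Ssr3 by 0.40, with Selenos at 0.22 and the dim Derl3 at 0.91 not passing. Of 10 other mitochondrial chaperones and proteases, 0 rose and 1 fell (2 and 1 unadjusted; Htra2 by 0.29 on the log2 scale), and Yme1l1 (0.20), Trap1 (0.19) and Grpel1 (0.13) did not pass. Most of these genes nonetheless lay above 0: 27 of the 32 cytosolic, 23 of the 32 ER and 8 of the 10 mitochondrial genes. MaR1 arrays lay above both vehicle arrays in 21, 19 and 6 of them, against 32.7% of all genes. They lay below both in 1, 5 and 2, against 36.8% of all genes. The difference in share between members and these lists was not tested.

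Other targets of the ATF4 type included genes that rose and 1 that fell. Of 35 measured, 7 rose (20%) and 1 fell (2.86%), against 11.2% and 12.8% of all genes tested, with a median of 0.07. The alanine aminotransferase gene Gpt2 rose by 1.09 ± 0.06 SE, the stress-induced repressor gene Atf3 by 1.05 ± 0.07 SE and the AP-1 family gene Jdp2 by 0.93 ± 0.06 SE. Gdf15, a secreted stress hormone, fell by 0.90 ± 0.06 SE on the log2 scale (limma adjusted p = 0.00393), the opposite direction. Of 6 eIF2 kinase and eIF2 genes 0 passed in limma, while 3 were higher at an unadjusted p under 0.05 (Eif2ak2 0.25, Ppp1r15b 0.20 and Eif2ak4 0.17), and Eif2s1 gave 0.15. Immediate early genes, which respond to handling as well as to signals, rose in 4 of 12 (33.3%, against 11.2% of all genes tested). The 4 were Zfp36 by 0.62, Ier3 by 0.42, Jun by 0.41 and Junb by 0.40. The part of immediate early genes in the stress gene differences was not tested.

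Cell type markers were read on the same arrays, as sums of signal in units of the array's 75th percentile. Counts of markers called stand beside 11.2% of all genes tested that rose and 12.8% that fell. Kupffer cell and macrophage markers summed to 1305 and 1255 with vehicle and 1237 and 1223 with MaR1, with 1 of 12 higher and 1 lower, and the brightest, Marco, gave -0.19. Dendritic cell markers were higher in 7 of 9 (median 0.73). The other 2 lay below 0, down to -0.28, and were lower at an unadjusted p under 0.05 in limma. All 9 summed to 87.0 and 82.8 with vehicle and 148 and 146 with MaR1. Cd83 rose by 1.02, and Xcr1 was not well above background in either group. Plasma cell markers, which come from cells with a large ER, were higher in 2 of 5 and summed to 2.98 and 3.16 against 4.64 and 4.74, with Igkc and Tnfrsf17 not well above background, and Sdc1 gave 0.22. B cell markers were higher in 3 of 6, with sums of 6.65 and 6.78 against 8.78 and 8.62. Ighm and Blk were not well above background, and Cd22 gave 0.15. Sinusoidal endothelial markers were split, with 3 of 8 higher, 1 lower, a median of 0.02 and 4 of 8 below 0. Sums of the endothelial markers were 66.4 and 69.8 against 80.1 and 79.9. Kdr was not well above background, and Stab2 gave 0.47. The part of these cell types in the members' differences was not tested.

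Markers of the other cell types were read in the same way. Hepatocyte markers were lower in 2 of 12 (median -0.25, with 12 of 12 below 0; sums 50.0 and 47.2 against 42.3 and 42.3; Apob and Cps1 not well above background; Tf -0.11) and stellate cell markers in 2 of 8 (median -0.36, with 8 of 8 below 0; sums 41.0 and 40.8 against 39.0 and 38.0, led by the bright Acta2 at -0.06; Lrat and Des not well above background). T and NK cell markers were higher in 3 and lower in 4 of 10 (median -0.18, with 7 of 10 below 0), and their sums, led by the bright Gzmb at 0.36, were 31.3 and 31.4 against 34.5 and 33.5. For neutrophil markers 0 of 6 passed (1.89 and 1.91 against 1.94 and 1.97; Ly6g and Ngp not well above background; Elane -0.14), and 0 did at an unadjusted p under 0.05 in limma. Across arrays, the 75th percentile of signal was 961 and 988 with vehicle and 946 and 847 with MaR1, 54.4% to 55.6% of probes were well above background, and 0 spots were saturated. Precision is limited by having 2 arrays in each group.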

How the data were processed

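Labelled RNA from 4 samples (2 per group) was hybridised to one-colour Agilent arrays. The authors deposited linear intensity values, extracted with Agilent Feature Extraction 11.0.1.1 per the file headers and processing notes, with background subtracted within each array. The deposited value table holds log2 values; its scale is not given in the sources used here, its columns have medians of 9.07 and near-identical distributions, as after quantile normalization, and it served as an alternative.

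Each processed signal was divided by the 75th percentile of its array (controls excluded) and put on the log2 scale. Control and outlier-marked spots (94 to 123 per array) were dropped, and a probe's spots averaged. Probes had to be well above background on both arrays of 1 group or more (31110 of 56605) and were named through RefSeq accessions (GRCm38.p6; 32994 probes, 58.3%, matched). A gene is its brightest kept probe (24055 genes, 14492 with a symbol). Groups were compared by limma 3.58.1 in R 4.3.3 (lmFit, eBayes, two-sided, Benjamini-Hochberg over all genes, threshold 0.05), checked on simulated data. Intervals are at 95% from the same fit, and branches are described by counts and medians without a test.

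The members and lists were chosen with earlier results of these data known. Values on each array are given for called members with an absolute log2 difference of at least 0.5, the regulators, Hspa5 and the serine pathway. Each other pathway list names up to 4 genes of smallest p, and each cell type list its most abundant gene. Alternatives were other scaling, background correction, filters, probe rules, a variance trend, the deposited values, a replicate block and leaving out each array. Plots used matplotlib 3.10.9.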

Additional observations from a re-analysis of the deposited data

How the results depend on the processing

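Signs of the 20 called members held in each of the 14 alternative settings, but counts did not. Higher calls in the cytosolic, ER and serine and amino acid branches, 6, 9 and 4 as reported, were 3, 3 and 3 with quantile normalization, 3, 0 and 2 with no scaling, 4, 4 and 3 in the deposited values, 4, 1 and 3 with no filter on dim probes (0 lower in the serine branch), and 10, 13 and 5 with a variance trend (2 ER members lower). The medians were 0.12, 0.16 and -0.0157 with quantile normalization, 0.10, 0.13 and -0.0690 with no scaling, 0.13, 0.14 and -0.00775 with normexp (1 ER member lower), 0.12, 0.16 and -0.0151 in the deposited values, and 0.0264 in the serine branch with the mean of a gene's probes. All genes tested gave 1447 higher with no scaling, 1087 higher and 972 lower with no filter (45604 genes, median shift -0.12), and 4525 and 4670 with a variance trend. The cause of these changes was not tested.

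With the replicate block, 3, 3 and 3 members were higher and 0 lower in the serine branch, and 1766 and 1926 of all genes were called higher and lower. The labels do not say what the replicate numbers mark, so the numbers were not taken to pair the samples. The deviations of arrays that share a number had a correlation of -0.03 over genes. With only 2 pairs this value cannot decide whether the samples are paired. Leaving out 1 array in turn, which assumes that the lone array varies like the other group, gave 2 to 3 higher in the cytosolic branch, 0 to 1 in the ER branch, 2 to 2 with 0 lower in the serine branch (1 lower at an unadjusted p under 0.05 in limma each time), ER medians of 0.25 to 0.28, and 1011 to 1336 higher and 916 to 1491 lower genes overall. Hspa1a, Hspa1b, Psat1 and Vldlr kept their calls throughout.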
